A study of Strongylocentrotus purpuratus with 191 samples.

Results

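Pairs of sister cultures of the purple sea urchin Strongylocentrotus purpuratus, grown from the same mother and father at the same temperature, were compared where one culture was ahead of the other in development. Each of 95 combinations of a female, a male and a temperature had 2 replicate cultures, and each culture carried a mean stage score in its labels. Pairs were kept where the scores differed by 0.05 or more, which left 48 of 95 pairs, or 96 of the 191 cultures. The culture with the higher score is called more advanced here, although the labels state neither the scale nor the direction of the score. All cultures were sampled as gastrulae, with no treatment named other than a growth temperature of 12C, 15C or 18C, and total RNA was extracted from the pooled whole embryos of a culture. The labels give no strain or age of the parents. The parents formed 2 blocks, numbered 3 and 4, of 4 females and 4 males each, and since each block had a plate of its own, the effects of block and plate cannot be told apart. A panel of 74 genes was read with the Illumina DASL assay, which joins pairs of short probes on cDNA and reads the amplified products on beads.

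During gastrulation the vegetal wall of the sea urchin embryo folds inward to form the gut. Skeletogenic mesenchyme cells, which descend from the micromeres and enter the blastocoel first, settle into a ring and secrete the larval skeleton, while pigment cells and other mesoderm arise from neighbouring cells and the ectoderm divides into oral and aboral territories. A network of transcription factors and signals, among the best charted of any embryo, runs these steps, and many of its genes switch on or off within a short span of development.

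deadringer was the 1 gene that passed the paired test across the panel. It encodes an ARID-domain transcription factor that acts in the skeletogenic mesenchyme and later in the oral ectoderm of the sea urchin embryo. It was read by 6 probes, 3 in exon 1, 1 in exon 3 and 2 in exon 6, as numbered in the probe names. Their sequences, shown because the result rests on them and taken from the deposited tables, are all in lower case because no base in them is singled out.
deadringer exon 1, probe 895: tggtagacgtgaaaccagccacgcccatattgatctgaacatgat
deadringer exon 1, probe 2915: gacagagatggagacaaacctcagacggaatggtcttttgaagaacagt
deadringer exon 1, probe 5297: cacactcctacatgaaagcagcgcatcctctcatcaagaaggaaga
deadringer exon 3, probe 5342: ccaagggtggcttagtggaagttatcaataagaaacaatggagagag
deadringer exon 6, probe 1309: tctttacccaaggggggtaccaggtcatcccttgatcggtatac
deadringer exon 6, probe 1647: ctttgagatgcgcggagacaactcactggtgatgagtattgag

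The 48 pairs came from 29 crosses and from all 8 females and 8 males, with 14 pairs at 12C, 14 at 15C and 20 at 18C, and 27 in block 3 and 21 in block 4. Their gaps in stage score ran from 0.0510 to 0.247 with a median of 0.0778. The mean score was 0.307 ± 0.0669 in the less advanced cultures and 0.399 ± 0.0677 in the more advanced ones (SD, n = 48 each). The pair just inside the limit, female C3 with male C3 at 18C, differed by 0.0510, and the pair just outside it, female A4 with male D4 at 18C, by 0.0490. In the other 47 pairs the gap had a median of 0.0252.

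The more advanced culture was sampled later in 43 of the 48 pairs. The difference in sampling time, whose unit is not stated, ran from -0.49 to 0.85 with a mean of 0.362 ± 0.328 (SD, n = 48). A two-sided sign-flip permutation test of this mean gave p = 1e-05, the smallest that 100000 resamples can give, and an adjusted p of 4e-05 over 4 tests. The mean was 0.429 at 12C, 0.190 at 15C and 0.435 at 18C, and 0.399 in block 3 and 0.314 in block 4. In the 47 pairs of smaller gap the culture of higher score was sampled later in 27, by a mean of 0.0521. Stage and sampling time therefore differed together in most of the 48 pairs, and the tests of stage are also given with sampling time in the model.

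**Figure D1:**
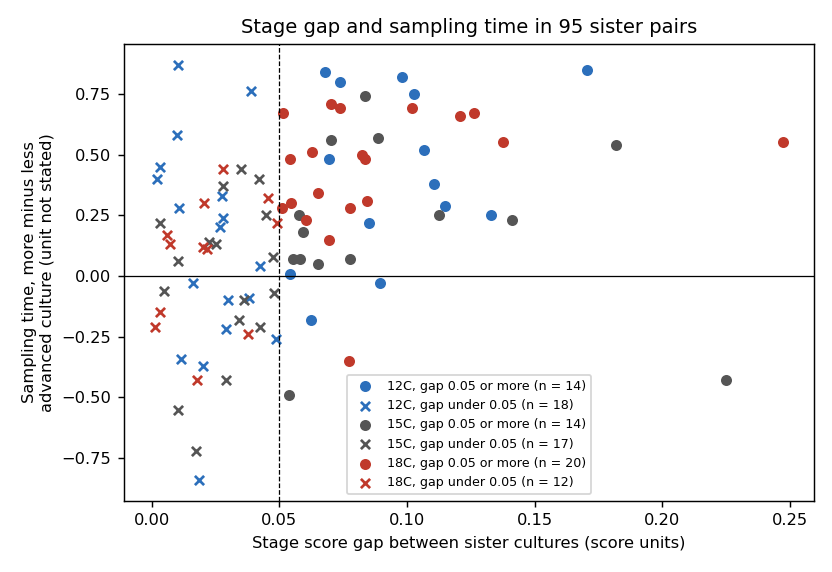
Each point is 1 of 95 sister pairs, with the gap in stage score on the x axis and the sampling time of the more advanced minus that of the less advanced culture on the y axis (unit not stated). Circles right of the dashed line at 0.05 are the 48 pairs kept, of which 43 lie above 0, and crosses are the 47 pairs of smaller gap, of which 27 do.

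The more advanced culture also lay later on the plate in 32 of the 48 pairs and was replicate 2 in 30. Position and sampling time were tied at 12C, with a correlation of 0.972 over 14 pairs. The spread of stage within a culture, given in the labels as an SD, differed by -0.00349 on average (permutation p = 0.549, adjusted p = 0.732). The median signal of the panel before normalization differed by 0.00459 log2 units (permutation p = 0.921, also after adjustment). After the authors' normalization the panel median of the more advanced culture was higher by 0.0202 ± 0.123 (SD, n = 48), by 0.0537 in block 3 and by -0.0228 in block 4. The 12 panel genes listed as markers of the gut, skeletogenic, pigment and oral territories stood at 1.82 to 4.14 log2 units above the negative controls. Pks, a listed pigment cell marker, and the listed aboral ectoderm markers Tbx2-3 and Spec1 were not on the panel.

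deadringer had, in the less advanced cultures, a lowest level of -0.75, a median of -0.05 and a highest of 0.44 on the authors' log2 scale, where the mean of each probe over its plate is 0. In the more advanced cultures the lowest level was -0.58, the median 0.08 and the highest 0.62. The ranges overlapped almost entirely, and the difference appeared within pairs. deadringer was higher in the more advanced culture in 34 of 48 pairs, by a mean of 0.13 ± 0.027 (SE), or 1.10-fold, with a limma adjusted p of 0.000772 over 74 genes. Single pairs ran from -0.23 in female D4 with male A4 at 15C to 0.62 in female C3 with male A3 at 18C, with a median of 0.17. The calls made up 1.35% of the genes tested. A further 12 genes had an unadjusted p under 0.05 without passing the adjustment, 13 in all with deadringer.

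**Figure D2:**
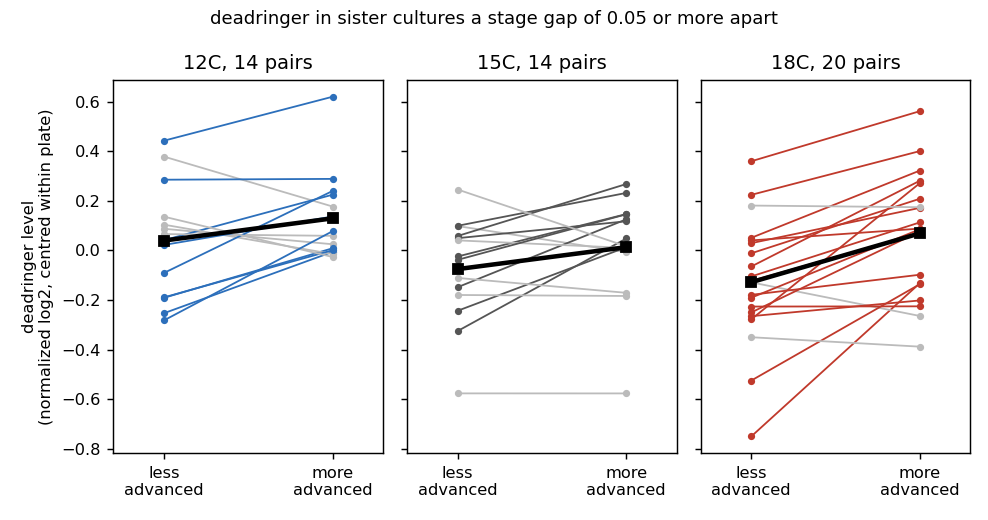
Each thin line joins the deadringer level of the less and the more advanced culture of 1 pair (authors' normalized log2, centred within plate), in 1 panel per temperature, and black squares are the means. Coloured lines rise and grey lines do not, and 34 of 48 rise, among them 17 of 20 at 18C.

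The mean of deadringer was positive in the pairs of every parent. By mother it ran from 0.0702 to 0.217 over 8 females and by father from 0.0525 to 0.184 over 8 males, and it was positive in 24 of 29 crosses. These means share pairs and are not separate samples of the effect. At 12C the difference was 0.09 ± 0.048 (9 of 14 pairs higher), at 15C 0.09 ± 0.045 (8 of 14) and at 18C 0.20 ± 0.043 (17 of 20). The 3 temperatures were not shown to differ (limma moderated F, p = 0.152, adjusted p = 0.749). In block 3 it was 0.15 ± 0.039 (20 of 27) and in block 4 0.11 ± 0.036 (14 of 21), and block 4 minus block 3 was -0.04 ± 0.055 (limma adjusted p = 0.576). Tested alone, the 27 pairs of block 3 and the 20 pairs at 18C called deadringer (limma adjusted p = 0.0321 and 0.0144), and block 4, 12C and 15C did not.

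All 6 probes of deadringer were higher on average, by 0.05 to 0.23. The probe of largest difference lay in exon 1 (probe 5297, 0.23 ± 0.063), followed by probe 1647 in exon 6 (0.21 ± 0.043, higher in 36 of 48 pairs), and the other exon 6 probe (1309) gave 0.12 ± 0.042. The probe of smallest difference was probe 895 in exon 1, with 0.05 ± 0.043 and 26 of 48 pairs higher. It was also the brightest, at 3.96 log2 units above the negative controls, and with that probe alone the gene was not called (limma adjusted p = 0.396). Differences read by separate deadringer probes were loosely related, with a median correlation of 0.273 over 15 probe pairs and 48 sister pairs that share their arrays.

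deadringer was also read in pairs split by how far apart the sisters were sampled, a split that was not tested as such. In the 19 pairs sampled within 0.3 time units the difference was 0.06 ± 0.036, with 11 higher, and in the 29 pairs farther apart it was 0.18 ± 0.036, with 23 higher. In the 5 pairs whose more advanced culture was sampled earlier it was 0.06 ± 0.087, with 2 higher. With the sampling time difference as a covariate the paired difference was 0.06 ± 0.039 and did not pass (limma adjusted p = 0.462), and no gene did. With the difference in plate position as a covariate it was 0.13, with an adjusted p of 0.00181.

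**Figure D3:**
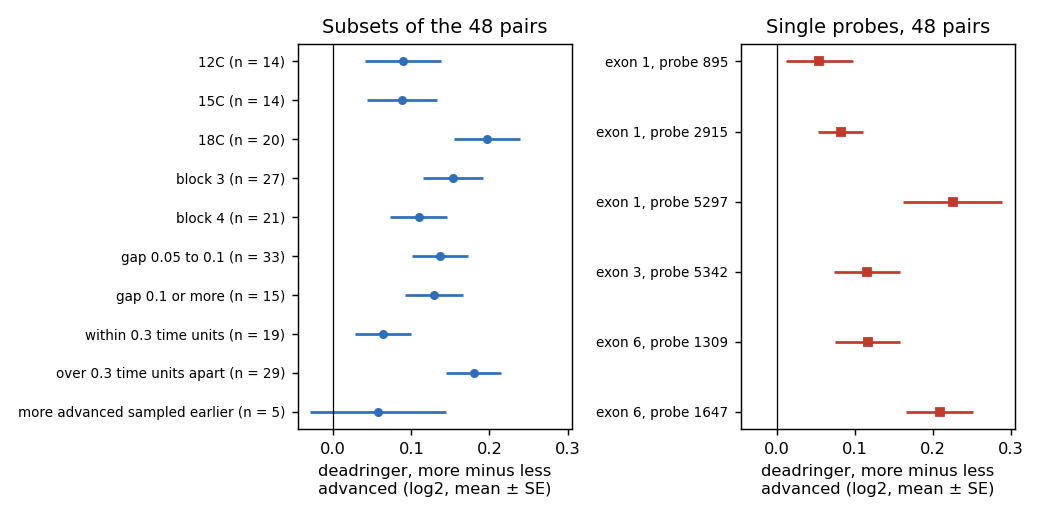
The left panel shows the mean difference of deadringer (more minus less advanced culture, log2, bars are SE) in subsets of the 48 pairs, and the right panel the same for each of its 6 probes. All means are positive, from 0.06 to 0.20 by subset and from 0.05 to 0.23 by probe, and the 19 pairs sampled within 0.3 time units average 0.06 against 0.18 for the 29 others.

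The same differences were also fitted over all 95 pairs with a line through 0, in which each pair counts by the size of its gap and no limit on the gap is needed. A slope in this fit shows a difference between sisters that is not 0, and does not by itself show that the difference grows with the gap. In this fit 6 genes passed (8.11% of those tested), with positive slopes for deadringer, CyclinT, VEGFR-10-Ig and Pmar1 and negative ones for SM32 and C-lectin. The slope of deadringer was 0.12 ± 0.026 log2 units per 0.1 units of stage score (limma adjusted p = 0.000465). Its differences were not ordered by the gap, with means of 0.07 ± 0.040 in gaps under 0.025, 0.02 ± 0.037 from 0.025 to 0.05, 0.14 ± 0.036 from 0.05 to 0.1 and 0.13 ± 0.037 above. In a line with an intercept, which tests growth with the gap and was chosen after seeing the data, no gene passed (limma, 0 of 74, 6 with an unadjusted p under 0.05, smallest adjusted p = 0.340), and deadringer had a slope of 0.08 ± 0.042 (unadjusted p = 0.0556). CyclinT, whose product pairs with a kinase that releases paused RNA polymerase in animals, had a slope through 0 of 0.09 ± 0.026 (limma adjusted p = 0.0208) and one of 0.11 ± 0.042 with an intercept (adjusted p = 0.340). CyclinT levels ran from -0.61 through -0.03 to 0.33 in the less advanced cultures and from -0.22 through 0.05 to 0.37 in the more advanced ones. The groups overlapped, and CyclinT was higher in the more advanced culture in 33 of 48 pairs. With the panel median of each array removed, 14 genes passed in the line through 0, 6 higher and 8 lower against 4 higher and 2 lower in the values as deposited, so the balance of directions depended on the centring. All 6 genes were among the 14.

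Pmar1 and VEGFR-10-Ig are listed among the skeletogenic genes, as is deadringer, which is listed with the oral ectoderm as well. Pmar1, a homeodomain repressor that starts skeletogenic specification in the micromeres, had a slope through 0 of 0.12 ± 0.040 per 0.1 units (limma adjusted p = 0.0329). In the less advanced cultures its level ran from -0.93 through a median of -0.06 to 0.46, and in the more advanced ones from -0.64 through 0.07 to 0.79. It was higher in 35 of 48 pairs. Pmar1 is a multicopy gene and its 6 probes were split between copies named a-b and c-d, all of them higher by 0.03 to 0.29, but reads cannot be assigned to single copies with certainty and 1 probe of the c-d copies (1590) lay at the level of the negative controls. VEGFR-10-Ig, a receptor for VEGF that guides skeletogenic cells, had one of 0.10 ± 0.034 (limma adjusted p = 0.0329) and was higher in 33 of 48 pairs. Its levels ran from -0.81 through -0.04 to 0.31 in the less advanced cultures and from -0.52 through 0.10 to 0.46 in the more advanced ones, and all 6 of its probes were higher.

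Both genes with negative slopes encode products of the skeletogenic cells. SM32, a spicule matrix protein gene, had a slope through 0 of -0.26 ± 0.083 per 0.1 units and C-lectin, a C-type lectin gene, one of -0.12 ± 0.038 (limma adjusted p = 0.0329 for each). Without the 2 pairs with a gap over 0.2 the slope of SM32 was -0.14 ± 0.090 (limma adjusted p = 0.348). SM32 levels ran from -0.60 through 0.09 to 1.62 in the less advanced cultures and from -0.88 through -0.07 to 1.12 in the more advanced ones. SM32 was lower in all 4 of its probes and C-lectin in all 5. In the 15 pairs with gaps of 0.1 or more SM32 was higher in only 4, with a mean of -0.34 ± 0.16, and in the 23 pairs with gaps under 0.025 it was higher in 15, with a mean of 0.01 ± 0.083. At 12C its difference was 0.09 ± 0.13, against -0.39 ± 0.24 at 15C and -0.33 ± 0.15 at 18C. C-lectin levels ran from -0.58 through 0.05 to 0.83 in the less advanced cultures and from -1.08 through -0.02 to 0.52 in the more advanced ones. By mother, C-lectin differed by -0.53 in female B4 (0 of 7 pairs higher) to 0.12 in female C3. SM32 differed by -0.75 in female B4 (1 of 7) to 0.12 in female D4. The mean was positive in 2 of 8 females for each gene. C-lectin stood at -0.03 ± 0.035 in block 3 (13 of 27 higher) and -0.22 ± 0.081 in block 4 (8 of 21). SM32 stood at -0.15 ± 0.12 in block 3 (12 of 27) and -0.32 ± 0.19 in block 4 (8 of 21).

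In the line through 0, without the 2 pairs with a gap over 0.2, deadringer was the 1 gene called, with 0.14 ± 0.030 per 0.1 units and a limma adjusted p of 0.000858. Without those pairs the slope was 0.08 ± 0.029 for CyclinT (limma adjusted p = 0.169), 0.11 ± 0.045 for Pmar1, 0.08 ± 0.037 for VEGFR-10-Ig and -0.09 ± 0.043 for C-lectin (limma adjusted p = 0.213 for each). Leaving out 1 pair at a time, deadringer passed in all 95 fits, with a largest adjusted p of 0.0012. C-lectin was lost in 11 of these fits, Pmar1 in 8, SM32 and VEGFR-10-Ig in 7 each and CyclinT in 2. Leaving out female B4 with male B4 at 15C, or female B4 with male D4 at 18C, left deadringer alone, and leaving out female D4 with male A4 at 15C raised the count to 10. The pair of female B4 and male B4 was also the 1 pair with a gap of 0.1 or more whose more advanced culture was sampled earlier.

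**Figure D4:**
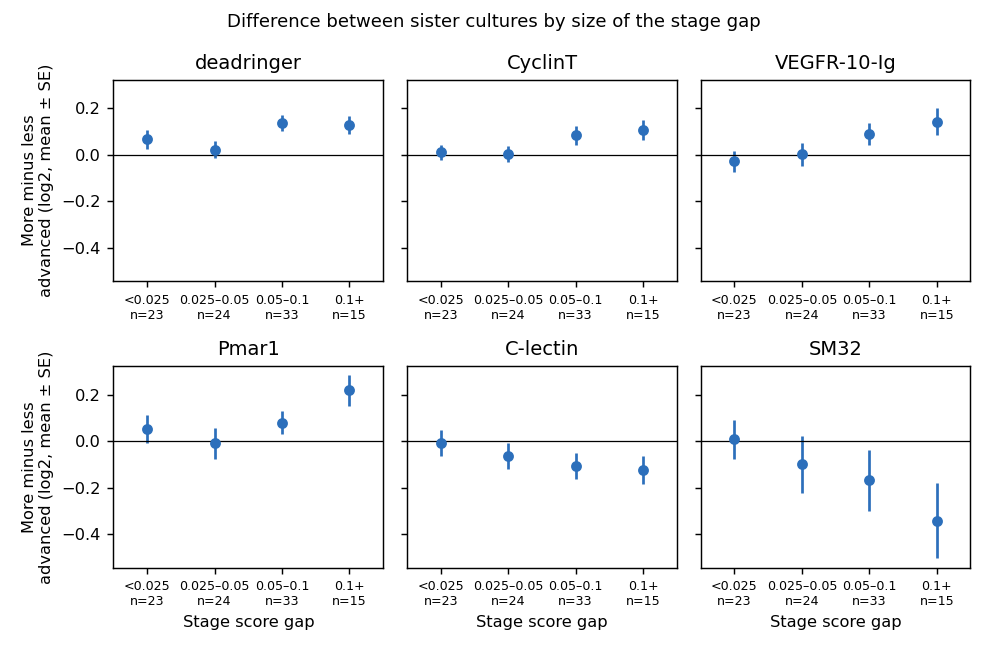
Mean difference (more minus less advanced, log2, bars are SE) of the 6 genes called in the line through 0, in 4 bins of the gap with the number of pairs under each. SM32 goes from 0.01 in the smallest gaps to -0.34 in the largest, VEGFR-10-Ig from -0.03 to 0.14 and Pmar1 from 0.05 to 0.22, while deadringer is 0.14 and 0.13 in the 2 bins above 0.05, and no gene passed the test for growth with the gap.

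No gene passed for stage when the gap and the sampling time difference were fitted together through 0 over 95 pairs (limma, 0 of 74 called, 0%, 13 with an unadjusted p under 0.05, smallest adjusted p = 0.163). deadringer had a slope of 0.09 ± 0.031 per 0.1 units of stage in that fit, below the 0.12 without sampling time (unadjusted p = 0.00679, adjusted p = 0.163), and SM32 one of -0.31 ± 0.10 (unadjusted p = 0.00307). With array medians removed, the count was 1, deadringer, at 0.10 ± 0.025 and an adjusted p of 0.00656. Sampling time at equal stage called 0 genes (0%, 7 with an unadjusted p under 0.05), and deadringer changed by 0.12 ± 0.055 per time unit (limma adjusted p = 0.414). In the 47 pairs of smaller gap, where stage was nearly equal, the slope of deadringer on sampling time was 0.04 ± 0.080 per unit, and no gene passed (limma, 0 of 74, 3 with an unadjusted p under 0.05).

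Those 47 pairs called 0 genes between the culture of higher and lower score (0%, limma, none with an unadjusted p under 0.05). deadringer was 0.04 ± 0.028 higher in them, in 28 of 47 pairs. The difference between the 48 and the 47 pairs was 0.09 ± 0.039 for deadringer (unadjusted p = 0.0220, limma adjusted p = 0.729), and no gene passed this direct comparison (0 of 74, 0%, 3 with an unadjusted p under 0.05). The effect in the 48 pairs was thus not shown to be larger than in pairs of smaller gap. Between temperatures 0 genes differed (limma, 3 with an unadjusted p under 0.05), and between blocks 0 genes did (11 with an unadjusted p under 0.05). In 67 of 74 genes the difference was lower in block 4 than in block 3 (median over all 74 genes -0.0752), beside the opposite shifts of the panel median in the 2 blocks.

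The remaining genes of small p did not pass and are given as values, with the paired difference over 48 pairs. Among genes of the gut, brn1-2-4, a POU-domain transcription factor gene, stood at 0.13 ± 0.049 (31 of 48 higher), Endo16, a secreted protein gene of the gut wall, at 0.07 ± 0.033 (29), APOBEC at 0.06 ± 0.031 (29) and Hox11-13b, a posterior Hox gene, at 0.05 ± 0.025 (29). Of the 5 Hox11-13b probes, 4 were higher and 1 lower. FoxA, a forkhead factor gene of the endoderm and the oral side, stood at -0.11 ± 0.055, with 17 of 48 higher and all 5 probes lower. Adjusted p-values were 0.159 for brn1-2-4, 0.207 for Endo16 and 0.253 for the other gut genes named (limma). With the median of probes in place of the mean, brn1-2-4 and CyclinT passed beside deadringer.

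Among signalling genes, Dkk, a secreted Wnt antagonist, had the widest difference, 0.20 ± 0.087, and is read by 2 probes at 1.36 log2 units above the negative controls. The Wnt receptor gene frizzled9 stood at 0.14 ± 0.069 and the ligand gene Wnt8 at -0.09 ± 0.046. Chordin, a BMP antagonist, stood at 0.06 ± 0.024, and delta, the Notch ligand, at 0.06 ± 0.026. Lefty, the Nodal antagonist, stood at -0.09 ± 0.041, with all 5 Lefty probes lower. Probes disagreed for delta, with 3 higher and 2 lower, and for Wnt8, with 1 higher and 3 lower. The limma adjusted p-values of these signalling genes ran from 0.202 for Chordin and delta to 0.283 for Wnt8. Cog1 (0.11 ± 0.058), Mitf, a bHLH factor gene (0.05 ± 0.025), and FoxB, a forkhead factor gene (0.08 ± 0.043), complete the 20. Of the FoxB probes, 4 were higher and 2 lower.

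**Figure D5:**
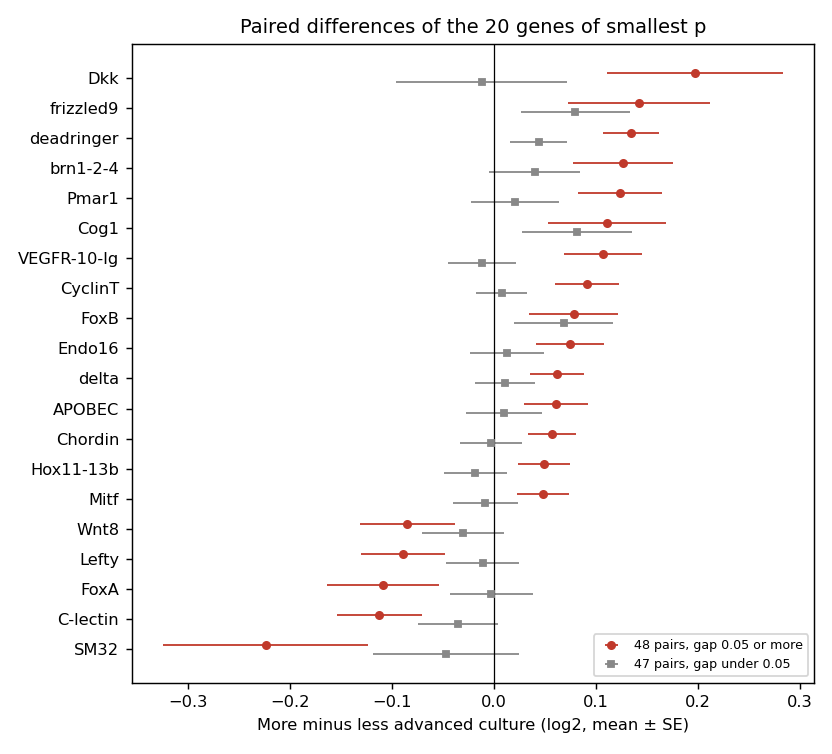
Mean paired difference (log2, bars are SE) of the 20 genes of smallest p, in the 48 pairs with a gap of 0.05 or more (red circles) and in the 47 pairs of smaller gap (grey squares). deadringer, at 0.13 against 0.04, is the 1 gene past the threshold in the 48 pairs, and no gene passed the test of red against grey.

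Over the panel, 48 of 74 genes were higher and the median difference was 0.0207, and the genes of each territory are set beside these values. The 13 skeletogenic regulators had a median of 0.0203, with 7 higher, and deadringer the 1 called. The 14 skeletogenic effectors had a median of 0.00768, with 8 higher, none called by the paired test, and 1 with a positive and 2 with a negative slope called in the line through 0. Msp130, the cell-surface glycoprotein gene of skeletogenic cells, stood at 0.03 ± 0.025 and SM50, a spicule matrix gene, at -0.07 ± 0.058. The 10 gut regulators had a median of 0.0226, with 6 higher, and the 12 oral ectoderm genes one of 0.0201, with 8 higher, deadringer included. All 4 genes of Delta-Notch signalling (delta, notch, HesC and Su(H), at 0.02 to 0.06) and all 4 of the ciliary band and other ectoderm (Hnf6, Lhx2, Otp and soxb1, at 0.01 to 0.07) were on the higher side, none of them called. Some of these genes lay near the negative controls. The probe detected most often was detected on 38.7% of arrays for Lhx2, 30.4% for notch and 2.62% for Otp. In the panel 7 genes averaged under 1 log2 unit above the negative controls. The 4 pigment cell and other mesoderm genes had a median of 0.00970, with 2 higher. None of the other lists held a gene called by the paired test: 2 of 3 gut effectors (median 0.0609), 2 of 3 aboral ectoderm genes (0.0175), 3 of 4 of Nodal and BMP signalling (0.0188), 4 of 6 of Wnt signalling (0.0239) and 10 of 13 regulators that act from the blastula (0.0203) were on the higher side. The gut effectors are APOBEC and Endo16, given above, and Gelsolin, an actin-severing protein gene, at -0.09 ± 0.075. In whole embryos, a change in the number of cells of a territory and a change of RNA per cell cannot be told apart.

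Over the whole panel, sisters apart in stage were not shown to be farther apart in expression. The root mean square difference over 74 genes was 0.309 ± 0.127 in the 48 pairs, from 0.138 to 0.627, and 0.275 ± 0.0978 in the 47 pairs of smaller gap (SD), from 0.146 to 0.635. The difference of 0.0341 had a permutation p of 0.147, and an adjusted p of 0.294 over 4 tests.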

How the data were processed

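RNA of 191 gastrula cultures was read on 2 DASL plates, and the submitters' processing notes name BeadStudio. The deposited normalized table holds log2 values of 336 probes, whose mean per probe and plate is 0, as read from the values; the normalization method is not given in the sources used here. The deposited non-normalized table holds log2 intensity from 7.17 to 14.7, with 27 negative controls. Its 1 array column that matched no sample was not used. The genome build is not given in the sources used here, so no coordinates are printed; 28 gene names matched the reference gene table.

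Probes of a gene were averaged. limma 3.58.1 in R 4.3.3 was fitted to within-pair differences over 74 genes, with Benjamini-Hochberg adjustment and a threshold of 0.05. A probe was detected where under 0.05 of its array's negative controls reached its value. The pairing follows from the labels, since sisters share both parents and the temperature. The deviations of sisters from their block and temperature means had a median correlation of 0.246 (80 of 95 positive), against -0.0410 for other cultures of the same group. The labels do not say whether replicates were separate fertilizations, so p-values may measure technical spread in part. For arrays the number of cultures limits the precision. Named genes are the calls of any test and the genes of smallest paired p, 20 in all. The pairs, lists and tests were chosen with earlier results of these data known, among them a stage slope of deadringer over the same cultures, so that gene is no independent finding. Figures used matplotlib 3.10.9.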

Additional observations from a re-analysis of the deposited data

Results flagged for a closer look

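Single measures, such as the difference of a gene or the stage gap, were checked for outlying pairs within groups formed by block and temperature. In 3 of 40 such combinations of a measure and a group, 1 pair stood apart from the others. Chance alone gives about 1 in 20 only where the values are normally distributed. Stage gaps are the higher minus the lower score, and pairs of small gap had been left out. Their values are therefore bounded from below, and this rate cannot be assumed for the stage gaps. The 40 combinations share pairs and do not cover every measure in every group. For SM32 in block 3 at 15C, female B3 with male C3 had a difference of -1.26 log2 units, and the next of the 8 pairs -0.565. For the stage gap in block 4 at 15C, female B4 with male B4 had 0.225, and the next of 6 pairs 0.0885. For the stage gap in block 4 at 18C, female B4 with male D4 had 0.247, and the next of 9 pairs 0.121.

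The non-normalized table also measures 3 genes that the normalized table lacks, all above the negative controls: Hmx by 3.69, Kakapo by 3.25 and RBM8A by 4.76 log2 units. With array medians removed, the more advanced culture differed by -0.10 ± 0.036 for Hmx (higher in 18 of 48 pairs, limma adjusted p = 0.177), by 0.10 ± 0.053 for Kakapo (32 of 48, limma adjusted p = 0.320) and by -0.01 ± 0.034 for RBM8A (23 of 48, limma adjusted p = 0.936).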

How the results depend on the processing

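The paired test of more against less advanced sister cultures called 1 gene, and deadringer was called in 32 of 40 alternatives, with differences of 0.0546 to 0.197. The 40 are not separate tests of the effect. They include the fits that leave out 1 parent, which share most of their pairs with the main test. The count was 0 with gaps of 0.1 or more (15 pairs), with sampling time as a covariate, within 0.3 time units, in block 4, at 12C and at 15C alone, and, chosen after seeing the data, against the pairs of smaller gap. It was 2 with array medians removed (with C-lectin), with detected probes only (with Hex, 68 genes tested) and without the 5 pairs whose more advanced culture was sampled earlier (with Pmar1, chosen after seeing the data), 3 with the median of probes, and 2 with the brightest probe (Fmo2 and Hex, not deadringer). Where Hex was called it was read by 1 probe (0.20), and its 2 other probes stood at -0.14 and -0.30. The brightest Fmo2 probe stood at 0.10, and 3 of the 5 Fmo2 probes were lower. Leaving out each parent in turn gave 1 to 5 calls, with 5 without female D4 and 4 without male A4, and deadringer in each. The count was 1 with the replicate number added as a replicate block. It was also 1 with cross and temperature as separate factors in place of the pairs.

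The line through 0 on the stage gap (6 genes) called 14 with array medians removed, 1 with the brightest probe (Hex), 2 in the array-centred non-normalized table (deadringer and Wnt8), 2 with the replicate block (CyclinT and deadringer) and 1 without the 2 pairs of gap over 0.2 (chosen after seeing the data). With an intercept it called 0, and leaving out 1 pair gave 1 to 10 calls (both chosen after seeing the data). At equal sampling time, stage called 1 gene with array medians removed. The replicate block left every other count at 0.

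For the root mean square difference over genes, the 15 pairs with gaps of 0.1 or more minus all other pairs gave -0.00757. Those other pairs include the kept pairs with gaps of 0.05 to 0.1, so the groups are not those of the main test. Single genes below the threshold reversed at 15C (Dkk -0.00525, APOBEC -0.00125, FoxB -0.00384), at 12C (SM32 0.0938, FoxA 0.0615), in block 4 (Mitf -0.0130) and with sampling time as a covariate (APOBEC -0.0194). The causes were not tested. Settings with fewer pairs have wider errors by construction, so a lost call there does not by itself show a smaller effect. The deadringer difference was 0.06 within 0.3 time units, 0.09 at 12C and at 15C, 0.11 in block 4 and 0.13 with gaps of 0.1 or more. The fit with sampling time as a covariate kept all 48 pairs, so the number of pairs was not reduced there.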
